A study of Mus musculus with 11 samples.

Results

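The 2 lists of POU3F1 binding regions compared here come from mouse epiblast stem cells (EpiSCs), one from cells kept in activin and the other from cells freed of it. They hold 214607 peaks on chromosomes 1 to 19 and X, of 1003005 in all 10 lists of the series, which cover ZIC2, OTX2, SOX2, POU5F1 and POU3F1 in both cultures. Of these, 112687 came from EpiSCs and 101920 from activin-free EpiSCs. A peak was called shared if it overlapped a peak of the other list by at least 1 bp, and otherwise EpiSC-only or activin-free-only.

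The EpiSCs were of 1 line from the 129/Sv strain and were grown without feeders in N2B27-based medium with activin at 20 ng/ml and Fgf2 at 10 ng/ml. For the activin-free group, activin was left out for the last 18 h before fixation. Both groups were transfected with a plasmid that expresses POU3F1 carrying the BLRP tag together with the BirA ligase, which attaches biotin to that tag, from the ubiquitous CAG promoter. The medium was changed after 8 h, and after 24 h the cells were fixed in 1% formalin, their chromatin was sheared to about 150 bp and tagged POU3F1 was collected on streptavidin beads. The lists therefore record tagged protein added to the endogenous pool in transiently transfected cells. There is 1 library for each culture, so a difference between the cultures cannot be told apart from a difference between the libraries, and no test between the cultures could be made. Intervals given below are 95% Wilson intervals for counting error over peaks, which are not replicates. Peak lists hold no transcript levels, so the state of the cells was not checked against marker genes.

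POU3F1, also called Oct6, is a class III POU-domain transcription factor of the epiblast and the early nervous system. POU domains have a pair of DNA-binding parts and typically contact an octamer sequence, singly or with a partner such as a SOX protein. Activin, like Nodal, signals through Smad2 and Smad3 and holds EpiSCs in the epiblast state, and removing it directs them toward the anterior neural plate.

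Sequences from the class-defining peaks show what the lists contain. In each, 80 bp around the octamer nearest the peak midpoint is printed in lower case, on the forward strand of mm9, with the octamer in capitals (ATGCAAAT or ATGCATAT, in either orientation). The first 3 belong to the highest-scoring shared peaks with such an octamer within 100 bp of the midpoint. All 3 had a score of 3100 or more in both lists and overlapped POU5F1 peaks of both cultures.
chr4:26692802-26692881, nearest gene Bhmt-ps1: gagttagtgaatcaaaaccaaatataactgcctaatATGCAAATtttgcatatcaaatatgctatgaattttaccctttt
chr8:65006582-65006661, nearest gene Anxa10: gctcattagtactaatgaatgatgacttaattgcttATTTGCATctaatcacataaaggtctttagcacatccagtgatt
chr15:48537003-48537082, nearest gene Csmd3: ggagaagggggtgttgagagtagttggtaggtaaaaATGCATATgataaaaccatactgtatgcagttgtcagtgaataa

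The next 3 belong to the highest-scoring EpiSC-only peaks with an octamer. Their scores were 378 at Sfmbt2, 342 near Svip and 336 near Ptbp2, so the strongest EpiSC-only sites with an octamer stood well below the shared ones.
chr2:10396956-10397035, nearest gene Sfmbt2: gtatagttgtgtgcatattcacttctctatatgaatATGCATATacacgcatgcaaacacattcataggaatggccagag
chr7:60498495-60498574, nearest gene Svip: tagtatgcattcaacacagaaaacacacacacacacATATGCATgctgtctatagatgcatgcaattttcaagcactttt
chr3:119983754-119983833, nearest gene Ptbp2: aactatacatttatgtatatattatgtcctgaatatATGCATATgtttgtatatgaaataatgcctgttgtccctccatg

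The corresponding activin-free-only peaks had scores of 520 near Odf1, 455 near Ptprk and 443 near Pabpc6. The peak near Odf1 also lay on ZIC2, OTX2 and SOX2 peaks of both cultures, and the one near Ptprk on no peak of another factor.
chr15:38129157-38129236, nearest gene Odf1: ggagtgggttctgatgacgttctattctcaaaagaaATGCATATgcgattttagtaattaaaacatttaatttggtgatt
chr10:27685182-27685261, nearest gene Ptprk: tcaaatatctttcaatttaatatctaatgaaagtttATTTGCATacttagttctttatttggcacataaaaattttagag
chr17:9840667-9840746, nearest gene Pabpc6: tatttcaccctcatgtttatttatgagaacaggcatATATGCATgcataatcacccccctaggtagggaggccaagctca

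A further pair of sequences comes from shared peaks near genes of the anterior neural plate. The peak 72.4 kb from Otx2, which codes for a head and forebrain homeodomain factor, had a score of 226.7 in EpiSCs. The activin-free peak there was wider, 2210 bp with a score of 613.7, and spanned both this EpiSC peak and a neighbour with a score of 121.4. The activin-free peak 64.0 kb from the start of Pax6, an eye and forebrain paired-box gene, lay in an intron of the neighbouring gene Elp4. Its score was 3032 over 3955 bp, and it spanned 2 EpiSC peaks that had scores of 489.5 and 1489. Another Elp4 region went the other way, from 1482 in EpiSCs to 1072 without activin.
chr14:49359605-49359684, nearest gene Otx2: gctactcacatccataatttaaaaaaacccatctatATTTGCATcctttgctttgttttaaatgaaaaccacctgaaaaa
chr2:105593618-105593697, nearest gene Pax6: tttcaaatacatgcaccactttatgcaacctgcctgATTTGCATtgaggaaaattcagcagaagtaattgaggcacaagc

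Most POU3F1 binding regions were common to the cultures. Of the EpiSC peaks 93120 were shared (82.6%, interval 82.4 to 82.9), which leaves 19567 EpiSC-only peaks (17.4%). Of the activin-free peaks 88440 were shared (86.8%, 86.6 to 87.0), which leaves 13480 activin-free-only peaks (13.2%). For comparison, 98.3% of 62387 EpiSC POU5F1 peaks but 47.1% of 126751 activin-free POU5F1 peaks were shared between the cultures, a much larger imbalance than for POU3F1. The shares were 77.6% and 55.9% for SOX2, 78.1% and 67.5% for OTX2 and 78.9% and 91.2% for ZIC2. Each POU3F1 list overlapped the other POU3F1 list more than any list of another factor, so the overlaps did not go against the labels. The next in order was activin-free POU5F1, which overlapped 53.2% of EpiSC and 54.6% of activin-free POU3F1 peaks.

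Where 1 peak of each list met only the other, 77235 pairs could be followed. Their midpoints were a median of 78 bp apart, and 60.0% were within 100 bp, but only 1 peak had the same start and end in both lists. The score, which is -10 times the log10 of the peak caller's p and at many of the strongest peaks is exactly 3100, was ranked alike across these pairs (Spearman's rho 0.843, n = 77235 pairs within the same 2 libraries, a description only). The median log2 ratio of the activin-free to the EpiSC score was 0.08, with quartiles of -0.41 and 0.55, and 82.6% of pairs were within 2-fold. Peaks were wider without activin in 71.7% of pairs, with medians of 1153 bp in EpiSCs and 1285 bp without activin. In the same direction, 6549 activin-free peaks each covered 2 EpiSC peaks, against 2680 EpiSC peaks that covered 2 activin-free peaks.

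**Figure D1:**
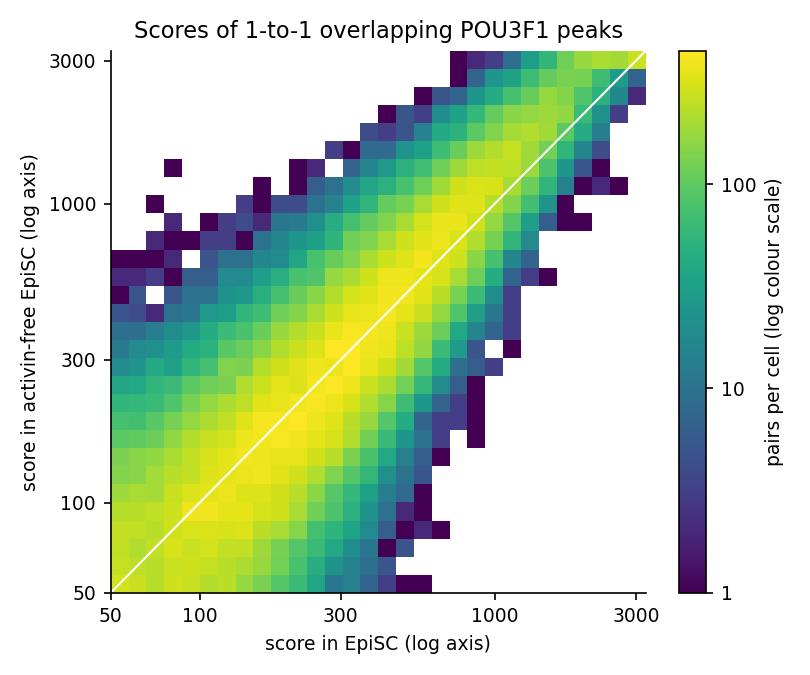
Scores of the 77235 pairs of POU3F1 peaks that overlap 1 to 1, EpiSC on the horizontal and activin-free EpiSC on the vertical log axis, with colour for the number of pairs in each cell. The white line marks equal scores. Most pairs lie along it, and pairs far off it are rare.

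Sharing followed the score closely. When each list was split into 6 equal groups by score, the shared share of EpiSC peaks was 46.9%, 67.2%, 85.2%, 96.8% and 99.7% from the lowest group upward, and in the highest group 1 peak was not shared. For activin-free peaks the shares were 55.5%, 76.0%, 91.2%, 98.1% and 99.8%, with 3 unshared peaks in the highest group. Unshared peaks thus lay almost entirely in the lower part of each list. EpiSC-only peaks had a median score of 76.6 against 250 for shared EpiSC peaks, and activin-free-only peaks 74.8 against 265. They were also narrow, with median widths of 663 and 809 bp against 1153 and 1326 bp for the shared peaks of the same lists. Of peaks 2000 bp or wider, 99.8% in EpiSCs and 99.9% without activin were shared.

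**Figure D2:**
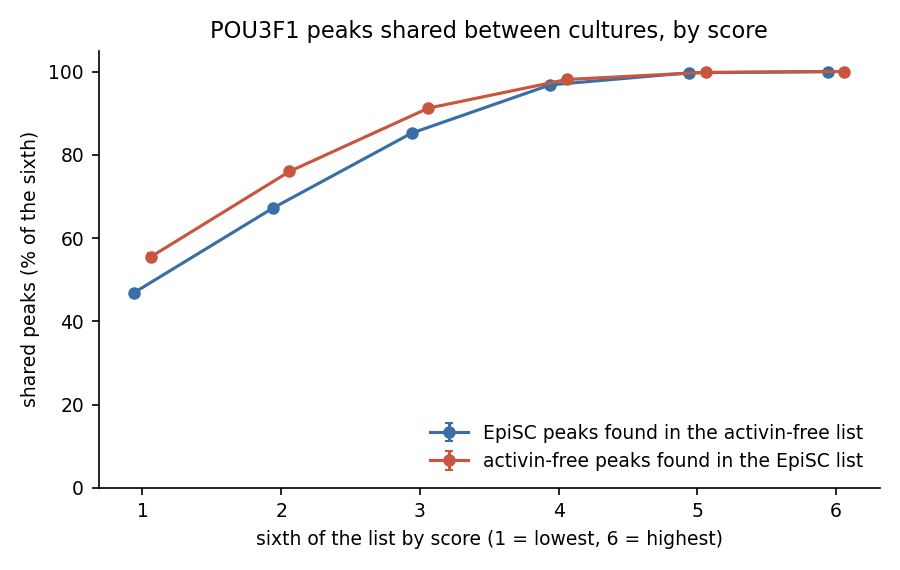
Share of POU3F1 peaks found in the other culture (vertical axis, percent) by sixth of each list in order of score (horizontal axis, lowest to highest). Points are shares with 95% Wilson intervals, which are smaller than the points. The share climbs from 46.9% to nearly all EpiSC peaks and from 55.5% to nearly all activin-free peaks.

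The edge of the 1 bp rule held few peaks. Among overlapping pairs, 163 shared 10 bp or less. Of the unshared peaks, 654 EpiSC-only and 304 activin-free-only peaks lay within 100 bp of a peak of the other list, and the median gap was 2849 and 3922 bp. Sharing was similar along the genome, from 80.2% on chromosomes 7 and 9 to 84.7% on chromosome 15 for EpiSC peaks. For activin-free peaks it ran from 83.8% on chromosome 7 to 88.7% on chromosomes 2 and 15.

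Position relative to genes differed between shared and unshared peaks. The transcription start site (TSS) of any annotated transcript lay within 50 kb of the midpoint of 52.5% (51.8 to 53.2) of EpiSC-only peaks and 46.2% (45.9 to 46.6) of shared EpiSC peaks, a difference of 6.23 percentage points. Without activin the shares were 52.3% and 46.5%, a difference of 5.79 points (4.89 to 6.70). Among peaks with scores of 50 to 100, a comparison added after the data were seen, the differences were 2.96 and 2.47 points. Right at start sites the classes parted. Within 1 kb of a TSS lay 4.20% (3.87 to 4.55) of activin-free-only peaks, against 1.80% of shared activin-free peaks, 2.48% of EpiSC-only peaks and 1.80% of shared EpiSC peaks. In the score range 50 to 100 these shares were 4.52%, 2.31%, 2.44% and 2.22%, with activin-free-only peaks again highest. Scores still differed within that range, with medians of 65.6 for activin-free-only and 74.1 for shared activin-free peaks. Elsewhere the classes were alike, with 59.6% to 62.8% of each between genes.

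The octamer was found in every class at well above its level in flanking DNA. ATGCAAAT or ATGCATAT, on either strand, was present within 100 bp of the midpoint of 8.95% (8.77 to 9.13) of shared EpiSC peaks and 8.40% (8.02 to 8.79) of EpiSC-only peaks. It was in 9.15% (8.96 to 9.34) of shared activin-free peaks and 10.7% (10.2 to 11.2) of activin-free-only peaks. Windows of the same length 1000 bp to either side held it in 3.36% to 3.63% of cases, and 255558 windows spaced 10 kb apart along the genome in 3.04%. Activin-free-only peaks thus exceeded their shared counterparts by 1.53 points (0.989 to 2.10), while the difference of EpiSC-only from shared EpiSC peaks was -0.552 points (-0.975 to -0.115). These differences were 0.879 and -1.29 points at scores of 50 to 100, and 2.65 and -1.06 among the 50000 strongest peaks of each list. The activin-free difference turned direction when the window was widened to 500 bp on either side, where activin-free-only peaks held an octamer in 25.7% and shared peaks in 29.7%. Median widths were 809 bp for activin-free-only and 1326 bp for shared activin-free peaks, and whether peak width has a part in this turn was not tested. The spaced sequence CATNNTAAT, on either strand, a match to which may overlap an octamer in part, was present at the centre in 9.67% of shared EpiSC, 7.99% of EpiSC-only, 10.1% of shared activin-free and 11.6% of activin-free-only peaks, against 3.83% of genome windows.

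Stretches with strict turns of purine and pyrimidine over 20 bp or more, as in a CA repeat, were in 6.60% (6.20 to 7.03) of activin-free-only peaks and 4.80% of shared activin-free peaks. They were in 4.25% of shared EpiSC peaks and 3.67% (3.41 to 3.94) of EpiSC-only peaks, against 3.79% of genome windows. Median GC content at the centre was 32.3% and 34.3% for shared and EpiSC-only peaks and 31.8% and 30.3% for shared and activin-free-only peaks, all below the 41.8% of genome windows. Core sequences of other factors differed less between the classes. ACAAAG or ACAATG, bound by SOX proteins, was within 100 bp of 29.6% to 32.1% of midpoints and GGATTA, bound by OTX2, of 8.48% to 8.93%, on either strand, against 28.5% and 8.00% of genome windows.

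Shared POU3F1 sites were more often POU5F1 sites. POU5F1 (Oct4), the POU factor of pluripotent cells, had a peak of the same culture on 30.9% (30.6 to 31.2) of shared and 14.2% (13.7 to 14.7) of EpiSC-only peaks, a difference of -16.7 points (-17.2 to -16.1). Without activin the shares were 58.2% (57.8 to 58.5) and 31.4% (30.6 to 32.2), a difference of -26.8 points (-27.6 to -25.9). Since unshared peaks score low, the same was counted at scores of 50 to 100, where the differences shrank to -2.44 and -9.60 points. Of EpiSC-only peaks 33.8% lay on a peak of the longer activin-free POU5F1 list, more than lay on an EpiSC POU5F1 peak. Of activin-free-only peaks 14.0% lay on an EpiSC POU5F1 peak. Most shared sites had another factor in at least 1 culture. No peak of any of the 8 other lists touched 32.7% of shared EpiSC and 31.2% of shared activin-free peaks, against 51.7% of EpiSC-only and 53.4% of activin-free-only peaks. These last shares were not counted at matched scores. At scores of 50 to 100, SOX2 was at 6.89% of EpiSC-only and 5.38% of shared EpiSC peaks, and OTX2 at 5.76% and 4.88%. That order is opposite to the order for POU5F1. Without activin, SOX2 was at 9.27% of activin-free-only and 9.85% of shared peaks in that range, and OTX2 at 10.9% and 10.6%.

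ZIC2, a zinc-finger factor of the epiblast and neural plate, rarely met POU3F1, but did so more often at sites seen only without activin. A ZIC2 peak of the same culture lay on 5.15% (4.79 to 5.53) of activin-free-only peaks and 1.55% (1.47 to 1.63) of shared activin-free peaks, a difference of 3.60 points (3.23 to 3.99). In EpiSCs the order was the opposite, with 0.746% (0.635 to 0.877) of EpiSC-only and 1.38% (1.31 to 1.46) of shared peaks, a difference of -0.637 points (-0.772 to -0.487). The excess was as large at scores of 50 to 100, 5.17% against 1.11%, and as large when the EpiSC ZIC2 list was used, 5.28% of activin-free-only peaks, so ZIC2 peaks were listed at as many of these sites with activin as without. Away from start sites by more than 1 kb it was smaller, 387 of 12914 activin-free-only peaks against 1250 of 86847 shared peaks (1.44%), a difference of 1.56 points (1.27 to 1.88).

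Activin-free-only peaks on ZIC2 lay in other places than the rest. Of the 694 activin-free-only peaks on a ZIC2 peak, 44.2% (40.6 to 48.0) were within 1 kb of a TSS, against 2.03% (1.80 to 2.28) of the other 12786 activin-free-only peaks. The corresponding share for the 1369 shared activin-free peaks on ZIC2 was 8.69% (7.31 to 10.3). Put the other way, of 566 activin-free-only peaks within 1 kb of a TSS 54.2% (50.1 to 58.3) lay on ZIC2, against 7.47% (6.28 to 8.87) of 1593 shared ones. The 694 peaks had a median GC content of 46.3%, held an octamer in 7.78% (6.01 to 10.0), and had a median score of 70.6. OTX2 was present at 34.6%, SOX2 at 36.5% and POU5F1 at 29.4% of them. At shared activin-free peaks on ZIC2 these shares were 30.2%, 23.7% and 67.3%, so OTX2 differed little between these classes. The other activin-free-only peaks were within 1 kb of a start site slightly more often than shared activin-free peaks off ZIC2 (1.69%, 1.61 to 1.78) and held the octamer in 10.8% (10.3 to 11.4). Peaks that met 6 or more of the 8 other lists made up 0.950% of activin-free-only, 0.808% of shared activin-free, 0.717% of shared EpiSC and 0.169% of EpiSC-only peaks. With these left out, the ZIC2 shares without activin were 4.43% and 1.29%.

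**Figure D3:**
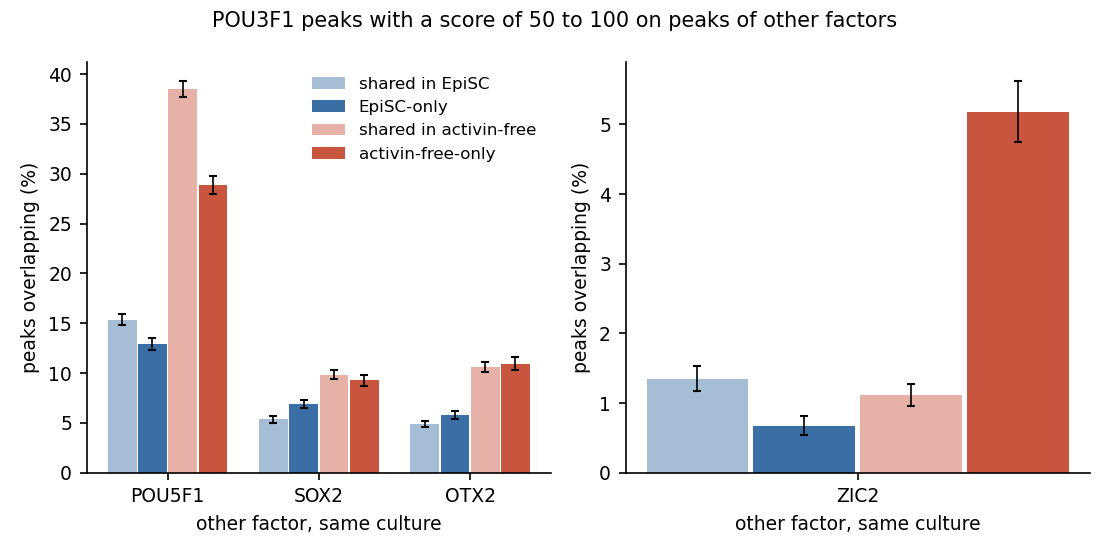
Share of POU3F1 peaks with scores of 50 to 100 that overlap a peak of another factor in the same culture (vertical axis, percent, with its own scale for ZIC2), for shared peaks (pale bars) and unshared peaks (dark bars) of EpiSCs (blue) and activin-free EpiSCs (red). Error bars are 95% Wilson intervals. POU5F1 is lower at unshared peaks, 28.9% against 38.5% without activin, and ZIC2 is higher at activin-free-only peaks, 5.17% against 1.11%.

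Of the 5 strongest activin-free-only peaks, 2 lay where 7 or 8 of the other lists also had a peak. The strongest, with a score of 3100, was a region of 6111 bp at chr17:39979787-39985897, 363 kb from Pgk2, with a GC content of 71.1% at its centre, and it met all 8 other lists. A region listed for every other factor is not particular to POU3F1, and whether it is a binding site was not tested. The next were a neighbouring pair near Gm15319 on chromosome 8, with scores of 2028 and 876.6, which met activin-free POU5F1 only and activin-free POU5F1 and SOX2 respectively. After these came a peak of 349 bp near Gm8882 with a score of 675.5, which met 7 of the other lists, and one near Itga4, an integrin gene, with 664.5, which met activin-free POU5F1 only. The 5 strongest EpiSC-only peaks had scores of 612.9, 512.5, 504.4, 502.9 and 502.4, and each met activin-free POU5F1. Their nearest genes, in that order, were Rab28, Ralyl, Gnai1, Serbp1 and Sfmbt2, at 7.95 to 381 kb. The nearest genes of the strongest shared peaks in EpiSCs were Lrrtm4, Gm10748, Slc39a10, Msl3l2 and Cnbd1, at 6.94 to 681 kb, with scores of 3218 or more. In activin-free EpiSCs they were Eltd1, Mat2b, Cntn4, Pcdh7 and 4921511H03Rik, at 27.7 to 596 kb, with scores of 3228 or more. All 10 of these shared peaks met activin-free POU5F1 peaks.

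The same broad parts of the genome were bound in both cultures. Summed peak width in segments of 1 Mb, divided by its mean, correlated across 2581 segments with a Spearman's rho of 0.992, a description of the same 2 libraries. Of 1663 segments at 0.3 of the mean or more in either list, 4 were over 1 log2 unit higher without activin, 1 of them with no EpiSC peak, and 0 were over 1 unit lower. The exception with most peaks was chr16:67000001-68000000 at Cadm2, where density was 0.347 in EpiSCs and 0.836 without activin (log2 ratio 1.27), with 25 and 45 peaks, 7 EpiSC-only and 28 activin-free-only. In that segment the POU5F1 density was 0 in EpiSCs and 0.453 without activin, the SOX2 density 0.181 and 0.0240, and OTX2 and ZIC2 had no peak in either culture. The adjoining segment chr16:68000001-69000000 had POU3F1 densities of 0.310 and 0.598. A segment upstream of Pcdh10, chr3:44000001-45000000, had 0.143 and 0.327, with 10 activin-free-only and 0 EpiSC-only peaks, and POU5F1 densities of 0 and 0.190. POU5F1 density did not follow in every such segment. In chr2:144000001-145000000, where POU3F1 densities were 0.170 and 0.356, those of POU5F1 were 0.713 and 0.492.

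Peaks were given to the protein-coding gene with the nearest TSS within 1 Mb. Of 22202 genes 8211 had an EpiSC peak (37.0%) and 8616 an activin-free peak (38.8%). At least 1 EpiSC-only peak fell to 4815 genes (21.7%) and at least 1 activin-free-only peak to 4877 (22.0%). Genes with activin-free peaks but no EpiSC peak numbered 917 (4.13%), and the reverse 512 (2.31%). More EpiSC-only than activin-free-only peaks were at 3470 genes (15.6%), more activin-free-only peaks at 2583 (11.6%). A gene with few neighbours is the nearest gene to more of the genome, so counts per gene depend on this territory too.

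Shared peaks were most numerous at 5 genes. Lrp1b, a giant lipoprotein receptor gene, had 488 EpiSC and 445 activin-free peaks, Csmd3 426 and 379, Dmd, the dystrophin gene, 424 and 351, and the cadherin genes Cdh18 and Cdh9 385 and 355 and 363 and 324. All 5 had fewer peaks in the activin-free list, which is the shorter one. EpiSC-only peaks were most numerous at Dmd with 65, Lrp1b with 58, Lingo2 with 55, Lrrc4c with 53 and Ptprd with 52. The differences of activin-free minus EpiSC peaks were lowest at Dmd with -73, Cdh10 with -55, Lingo2 with -54, Cntn5 with -49 and Csmd3 with -47.

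The 5 genes with the largest differences in the other direction are described next, with no test, since they were chosen for that difference. Cadm2, which codes for a synaptic adhesion molecule of the immunoglobulin family, had 118 EpiSC and 148 activin-free peaks, and 55 of the latter (37.2%) were activin-free-only. Pcdh10, a protocadherin gene, had 31 and 52 peaks, 25 of them (48.1%) activin-free-only. Epha6, an ephrin receptor gene, had 49 and 69, with 30 (43.5%) activin-free-only. Cntnap2, a contactin-associated adhesion gene, had 73 and 84, with 27 (32.1%) activin-free-only, and Tpm3-rs7 had 10 and 23. Among the 40 listed genes of neuronal adhesion, guidance and synapse, 7 had more peaks without activin and 33 had more in EpiSCs. Over all 22202 protein-coding genes, 2471 had more peaks without activin and 3861 had more in EpiSCs, and the activin-free list is the shorter one. Pcdh9 had 46 activin-free-only peaks, but 242 EpiSC and 232 activin-free peaks in all. Gm9726 and 4921530L21Rik, with 36 and 34 activin-free-only peaks, also had slightly fewer activin-free than EpiSC peaks.

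**Figure D4:**
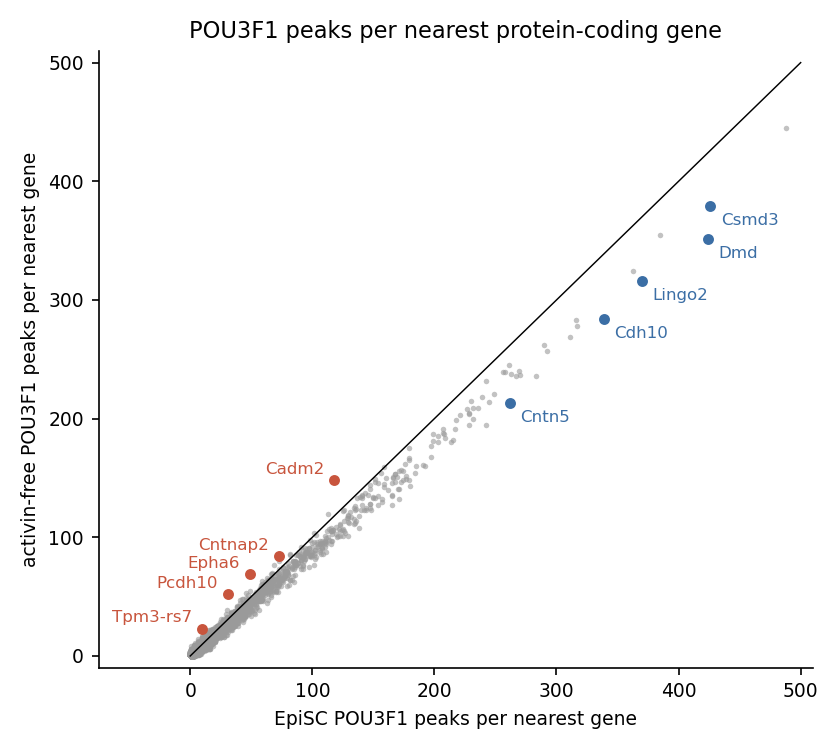
Number of POU3F1 peaks per nearest protein-coding gene in EpiSCs (horizontal axis) and activin-free EpiSCs (vertical axis), 1 point a gene, with the line of equal numbers. Red names mark the 5 largest and blue names the 5 smallest differences. Most genes with many peaks lie below the line, and Cadm2, with 118 and 148 peaks, lies above it.

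At Cadm2 the activin-free-only peaks lay on both sides of the start site and far along the gene. Upstream of the outermost start site lay 18 EpiSC peaks, 5 of them EpiSC-only, and 31 activin-free peaks, 19 of them activin-free-only. The first 500 kb downstream held 10 and 22 peaks, 4 and 16 of them unshared, and the stretch beyond 90 and 95, 11 and 20 unshared. The activin-free-only peaks there had a median score of 73.6 and a maximum of 351, and 13 of the 55 met an activin-free POU5F1 peak and 0 a ZIC2 peak. An octamer was within 100 bp of the midpoint of 16.2% of the 148 activin-free and 11.9% of the 118 EpiSC peaks. Cntnap2 had the same order, 10.7% without activin and 8.22% in EpiSCs. The order was opposite at Epha6, 10.1% and 18.4%, and at Pcdh10, 7.69% and 9.68%. The median score of all peaks at Cadm2 was 122 in EpiSCs and 137 without activin.

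**Figure D5:**
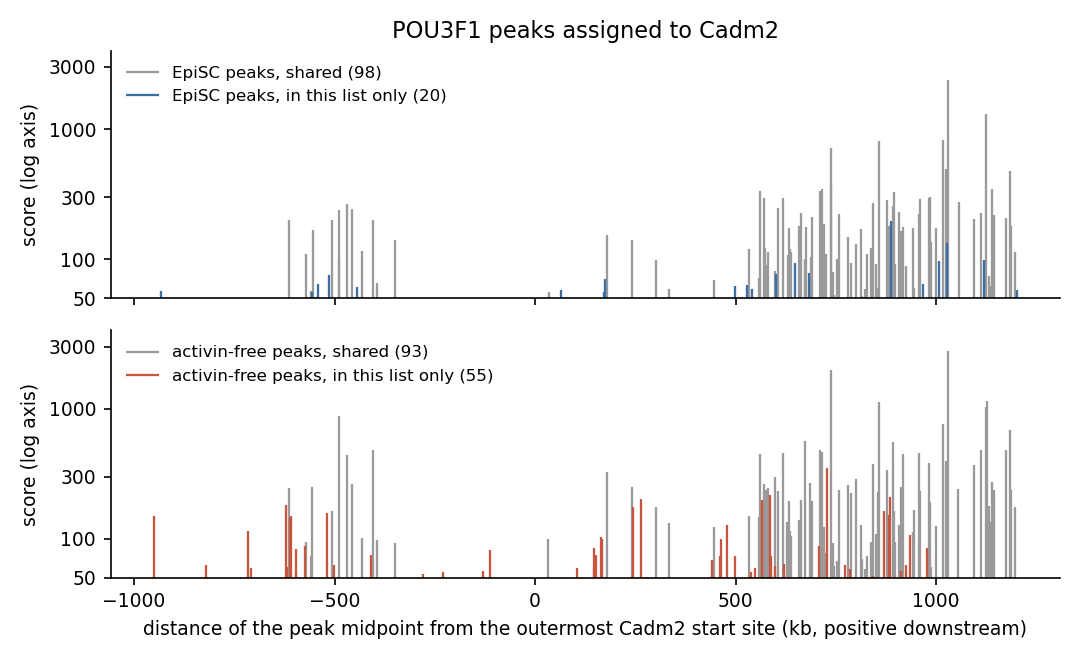
POU3F1 peaks assigned to Cadm2, by distance from its outermost start site (horizontal axis, kb) and score (vertical log axis), in EpiSCs (top) and activin-free EpiSCs (bottom). Grey lines are shared peaks and coloured lines peaks in that list only, 20 in EpiSCs and 55 without activin, which lie on both sides of the start site.

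Genes of the activin and Nodal pathway carried EpiSC-only peaks somewhat more often than genes at large. Of the 200 EpiSC peaks at the 22 listed genes, 25.0% (19.5 to 31.4) were EpiSC-only, against 17.6% over all genes, and of the 166 activin-free peaks 13.9% (9.41 to 19.9) were activin-free-only, against 13.3%. Most lay at a few genes. Acvr2a, which codes for a type II activin receptor, had 90 EpiSC peaks with 19 EpiSC-only and 76 activin-free peaks with 8 activin-free-only. Inhba, which codes for the activin A subunit, had 51 with 15 and 42 with 7. Nodal itself, Lefty1, Lefty2 and the co-receptor gene Tdgf1 had 0 peaks in both lists.

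Pluripotency genes showed the reverse, on small numbers. Of 73 activin-free peaks at the 19 annotated genes, 22 were activin-free-only (30.1%, 20.8 to 41.4), and of 62 EpiSC peaks 9 were EpiSC-only (14.5%, 7.83 to 25.3). The shares over all genes were 13.3% and 17.6%. More activin-free-only than EpiSC-only peaks were at 7 of the 19 genes, beside 11.6% of all genes, and the opposite at 0, beside 15.6%. Any EpiSC peak was at 8 of the 19 and any activin-free peak at 10, beside 37.0% and 38.8% of all genes. At Mycn and L1td1 the excess was 1 peak each, with scores of 97.7 and 66.4. Klf4 had 10 activin-free peaks with 5 unshared and 7 EpiSC peaks with 2 unshared, and Klf5 12 with 5 and 10 with 3. Both code for Kruppel-like factors of naive pluripotency. Nanog, Sall4 and Pou5f1 had 0 peaks in either list. Primitive streak, mesoderm and endoderm genes had few peaks, 20 and 24, of which 4 (20.0%, 8.07 to 41.6) and 9 (37.5%, 21.2 to 57.3) were unshared, including 3 activin-free-only peaks at Foxa2. Over all genes the shares were 17.6% and 13.3%. With so few peaks, which are not replicates, no difference is read from these intervals. The shares of the gene lists were not counted at matched scores.

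Anterior neural genes were close to the background in both directions, with 18.0% (13.0 to 24.4) of 172 EpiSC peaks and 16.0% (11.2 to 22.5) of 162 activin-free peaks unshared. Single genes differed in direction. The highest scores given here stand beside higher scores without activin in the whole upper part of the list, where the highest of the 6 score groups had a median of 1300 against 943 in EpiSCs. Fezf1, a forebrain zinc-finger gene, had 24 EpiSC and 18 activin-free peaks, with 5 EpiSC-only and 0 activin-free-only peaks, and Sox3 15 and 15 with 3 and 4. Sox2 had 9 and 11 peaks, 2 of them activin-free-only, with highest scores of 403 and 725. Pax6 had 7 and 8 with 0 and 2 unshared, and its highest score was 1489 in EpiSCs and 3032 without activin, at the region that spans 2 EpiSC peaks. Otx2 had 17 and 16 with 3 unshared on each side and highest scores of 654 and 1244. Fgf5, an epiblast growth factor gene, had 5 and 5 with 1 unshared on each side and highest scores of 523 and 943, and Nes had 0. Mycn had 0 in EpiSCs and 1 activin-free-only peak, with a score of 97.7.

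In the 4 remaining lists the unshared shares lay near or below those of all genes. At 40 genes of neuronal adhesion, guidance and synapse, 13.8% (13.0 to 14.6) of 7138 EpiSC peaks and 10.3% (9.58 to 11.1) of 6359 activin-free peaks were unshared, even though Cadm2, Pcdh9 and Lrp1b are among them. FGF pathway genes had 9.86% (6.54 to 14.6) of 213 and 9.76% (6.40 to 14.6) of 205, the latter with the share of all genes inside its interval. Etv1, an ETS factor gene, held 160 of these EpiSC and 150 of these activin-free peaks, with 14 EpiSC-only and 11 activin-free-only. The FGF shares thus describe mainly Etv1. Cadherin switch and mesenchymal transition genes had 14.7% (11.4 to 18.6) of 375, again with the share of all genes inside the interval, and 9.57% (6.89 to 13.1) of 345, with 18 and 14 unshared peaks at Zeb2, 17 and 14 at Cdh2 and 12 and 3 at Cdh11. POU factor genes had 19.6% (15.5 to 24.5) of 296 and 10.7% (7.53 to 15.1) of 261. Among them Pou3f2, a neural paralogue of Pou3f1, had 16 EpiSC-only and 6 activin-free-only peaks, Pou3f4 15 and 14 and Pou1f1 8 and 3.

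The gene of the expressed factor was itself covered in both lists. A peak with a score of 3100 covered 100% of the 1401 bp of Pou3f1 coding sequence in both POU3F1 lists. Its width was 1777 bp in EpiSCs and 2120 bp without activin, and both ZIC2 lists covered the same sequence with a score of 3100. No peak of the OTX2, SOX2 or POU5F1 lists did so. The POU3F1 lists also covered 100% and 98.3% of Zic2 coding sequence, with highest scores of 1118 and 1459, and 62.7% and 69.4% of that of Otx2, and 0 of Sox2 and Pou5f1. Binding and carried-over plasmid, which holds the same coding sequence, cannot be told apart at Pou3f1, so its 1 peak is not read as binding. The plasmid used for these libraries coded for POU3F1, not for ZIC2 or OTX2. What the coverage of Zic2 and Otx2 coding sequence reflects was not tested either.

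Among pairs of shared peaks, 2161 ranked over 30 percentile points higher by score without activin and 3741 lower by as much, together 7.64% of the pairs. Those higher without activin had median scores of 74.1 in EpiSCs and 258 without activin, and held an octamer in 14.0% (12.6 to 15.5), against 9.04% (8.16 to 10.0) of those lower and 9.39% (9.18 to 9.61) of the rest. ZIC2 was at 4.16% (3.40 to 5.09), 0.909% (0.651 to 1.27) and 1.60% (1.51 to 1.69) respectively. That order is the same as between activin-free-only and EpiSC-only peaks, each of which was counted in its own culture. Start sites within 1 kb were at 2.08%, 2.22% and 1.75%. For the pairs, octamers, ZIC2 peaks and start sites were counted only at the activin-free peak, with the activin-free ZIC2 list. Pairs lower without activin had a median score of 77.8 at that peak, so the groups differed in score where they were counted. The largest rank increase was at a peak 12.8 kb from Cited4, which codes for a transcriptional co-activator, with scores of 76.8 and 1406. The largest difference the other way was near Gm17352, with scores of 584 and 53.2. Both were singled out after their values were seen.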

How the data were processed

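Per the labels and the methods of the study, the authors aligned the reads of each library to mm9 by Bowtie2 (version not given in the sources used here) and called its peaks with MACS1.4 against input DNA, with default settings apart from the band width. Each deposited list gives start, end and a score, which is -10 times the log10 of the MACS p-value, and it was not normalised between libraries. The lists hold no reads or coverage, so depth is unknown. The score depends on depth, and so do the number and width of peaks. The series holds input from EpiSCs only, with none labelled as activin-free, and this input was not analysed here.

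The 66 EpiSC and 69 activin-free POU3F1 peaks outside chromosomes 1 to 19 and X were left out. Overlap, score, width, density and genes were computed with Python 3.11.15, pandas 2.3.3, NumPy 2.4.6 and SciPy 1.17.1, and sequences were read from mm9 with pysam 0.24.0. The interval functions were tested on simulated lists. TSSs (86803 distinct, 45939 of protein-coding transcripts) and genes came from GENCODE vM1, and 22342 protein-coding gene entries gave 22202 symbols. Sox1 and Tfcp2l1, of the gene lists, matched no symbol.

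Genes named are those the study names with an epiblast or neural role, those of the 5 TFs, the nearest genes of the 5 strongest peaks of each class, the 5 genes with most shared or unshared peaks and, among genes with at least 20 peaks in all, with the largest and smallest differences, and the 3 members of each gene list with most unshared peaks. Some genes that met this rule are not reported here. Octamers are printed for the 3 strongest peaks of each class outside chromosome 18 that hold one, and for shared peaks near Otx2 and Pax6. Other genes were added as listed members with 0 peaks or after their values were seen. The members and lists were chosen with earlier results of these data known. Alternatives changed the overlap, score, width, merging, distance, chromosome, TSS, window and segment settings.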

Additional observations from a re-analysis of the deposited data

How the results depend on the processing

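No paired analysis was possible because each culture has 1 library and the labels give no replicate numbers. The shared shares of EpiSC and activin-free peaks were 72.0% and 79.6% when an overlap of 50% of both peaks was required, 84.0% and 87.9% when both lists were limited to scores of at least 100, 86.4% and 84.2% among the 50000 highest-scoring peaks of each list, 31.5% and 51.3% when both lists were limited to peaks under 1000 bp, and 85.4% and 88.4% when peaks within 500 bp counted as shared. Where both lists were limited, an overlap with a peak left out counted as none. The order of the 2 shares thus turned in the 50000 strongest peaks. With the 50% overlap the lowest score group had 28.8% and 47.8% and the highest 95.2% and 95.3%. Merging peaks within 150 bp or leaving out chromosome X moved neither share beyond its interval. The unshared minus shared difference in peaks within 50 kb of a TSS was 4.78 points for EpiSCs in the 50000 strongest peaks, and 2.96 (EpiSC) and 2.47 (activin-free) at scores of 50 to 100, a range chosen after seeing the data. For the octamer it was -4.47 and -4.01 with 500 bp to either side, which turned the activin-free direction, -1.06 and 2.65 in the 50000 strongest peaks, and -1.29 and 0.879 at scores of 50 to 100. For POU5F1 it was -11.8 and -18.3 with the 50% overlap, -18.1 and -19.2 in the 50000 strongest peaks, and -2.44 and -9.60 at scores of 50 to 100. For ZIC2, under settings chosen after seeing the data, the activin-free difference was 4.06 at scores of 50 to 100, 1.56 away from start sites and 3.14 without peaks in 6 or more other lists, where the EpiSC difference was -0.466. The causes were not tested. The other 13 alternatives stayed within the interval or limit of their result. There is 1 library a culture, depth is unknown, and its part in these results was not tested.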
